A study of Drosophila melanogaster with 9 samples.

Results

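Gene expression of adult Kenyon cells (KC) was compared with that of Kenyon cells at 45 h after puparium formation (45 h APF, called pupal below). The measure was the difference in log2(FPKM + 1), adult minus 45 h APF, where FPKM is the number of fragments per kilobase of transcript, scaled to sequencing depth. A difference of 1 is a 2-fold and a difference of 2 a 4-fold change on this scale, which understates the change of genes near or below 1 FPKM. Genes were kept where the mean of the KC values was at least 1 FPKM, which left 8079 of 16854 genes (47.9%). Just inside this limit were CG16799 (listed at 0 adult and 2.003 pupal FPKM), CR44047 (1.86 adult and 0.143 pupal FPKM) and ptc (0.592 adult and 1.41 pupal FPKM), and just outside it were retn (1.00 adult and 0.995 pupal FPKM), CG34045 (1.88 adult and 0.110 pupal FPKM) and CG12672 (1.47 adult and 0.519 pupal FPKM).

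The study sorted 3 cell populations from Drosophila brains without optic lobes, namely KC carrying GFP, olfactory projection neurons (PN) carrying tomato, and cells with neither marker (double negative, DN). The flies of all groups carried GH146:Gal4>UAS:tomato/CyO, which labels the projection neurons, together with MB247:LexA>LexAop:GFP/TM2, and brains of males and females were pooled. The adult group had 2 libraries per population and the 45 h APF group 1 library per population, from a pooled sample. SmartSeq V2 libraries were made from poly(A) RNA, with 1 ng of total RNA as the aim. A HiSeq gave reads of 50 bases for the adult group and a NextSeq reads of 75 bases for the pupal group, so the stage cannot be told apart from the sequencer or the read length. The label in KC comes from MB247, an enhancer fragment of the gene Mef2, so the sorted KC are the cells in which that fragment was active at each stage. The deposited adult column is the authors' average of the adult libraries, so each gene has 1 value per stage, with no error, no replicate check and no p-value. Every comparison here is therefore a size, and in sorted bulk samples fewer cells of a type and less RNA per cell cannot be told apart.

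The mushroom body is the olfactory learning centre of the insect brain, and Kenyon cells are its intrinsic neurons. Projection neurons bring them odor signals, which they take up on claw-like dendrites, and dopaminergic neurons act on their axons. During metamorphosis the earliest-born Kenyon cells prune their larval axons and dendrites under control of the steroid hormone ecdysone and then regrow them, later-born Kenyon cells are added, and synapses form in the second part of pupal life.

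The sorted cells carried Kenyon cell genes at both stages. Of a list of 20 Kenyon cell genes, 19 were kept, and all 19 of these reached 5 FPKM in the adult and at 45 h APF. The Pax6 gene ey stood at 275 FPKM in adult KC and 228 FPKM at 45 h APF. The vesicular transporter gene prt, known from Kenyon cells, stood at 439 adult and 532 pupal FPKM, and the transcription factor gene dac at 86.0 adult and 42.9 pupal FPKM. Projection neuron genes were at or near 0 in KC. Oaz was listed at 0 FPKM in the adult and at 0.128 FPKM at 45 h APF, acj6 stood at 0.0903 adult and 0.178 pupal FPKM, and the 7 genes of the projection neuron list summed to 1.61 FPKM in adult KC and 5.33 FPKM at 45 h APF, against 659 adult and 178 pupal FPKM in PN.

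Markers of other cell types were also measured. Of 15 kept of 19 glial genes, 6 were at least 2-fold lower and 1 was higher in adult KC (median -0.78). The 19 glial genes summed to 283 FPKM in adult KC and 2942 FPKM at 45 h APF, of which the gene Obp44a alone gave 10.4 adult and 2514 pupal FPKM. Without it the sums were 272 adult and 428 pupal FPKM. The glial transcription factor gene repo stood at 0.480 adult and 6.42 pupal FPKM. PN (276 FPKM in the adult and 5316 FPKM at 45 h APF) and DN (502 adult and 4157 pupal FPKM) had the same order. Of 11 kept haemocyte and fat body genes, 8 were lower and 1 was higher at 2-fold (median -1.75). Without genes listed at 0 in a KC column this median was -0.67. Over all kept genes 24.6% were lower and 19.5% higher at 2-fold. Sums over the haemocyte and fat body genes were 192 FPKM in adult KC and 434 FPKM at 45 h APF, most of it from the peroxidasin gene Pxn (103 adult and 320.2 pupal FPKM). The muscle list summed to 4.45 adult and 12.3 pupal FPKM, the trachea list to 7.46 adult and 3.09 pupal FPKM, and the photoreceptor list to 12.1 adult and 7.96 pupal FPKM. The part of these cells in the differences below was not tested.

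In KC, 617 genes were at least 4-fold higher in the adult (7.64% of the kept genes) and 469 were at least 4-fold lower (5.81%). Past 10-fold, 140 were higher and 145 lower in the adult. Of the 4-fold genes, 469 of the higher and 427 of the lower ones are protein-coding. The median over the kept genes was -0.31, and 90% of the genes lay between -2.13 and 2.38. At the 2-fold level, which is used below for members of gene lists, 1578 genes (19.5%) were higher and 1986 (24.6%) were lower in the adult. The FPKM columns summed to 720834 in the adult and 1055098 at 45 h APF, and scaling them to the same sum moved the median by 0.53, to 0.23, so that small negative differences, such as that of prt (-0.28), lie above 0 on that scale. The share of the 4-fold genes that were higher in the adult was 56.8% as deposited, 76.4% with the same sum and 71.1% after upper quartile scaling.

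Differences in KC also went with gene length. Over genes with 4084 or more bases of annotated exon (the longest of 5 length classes of equal size) the median KC difference was 0.87, against -0.21, -0.57, -0.64 and -0.50 in the classes below, from longer to shorter. The longest class had medians of 1.36 in PN and 0.36 in DN. Many neuronal genes are long, and the main lists below are also given as the median of its members' differences after subtracting the median of their own length class. What produced the relation to length was not tested.

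**Figure D1:**
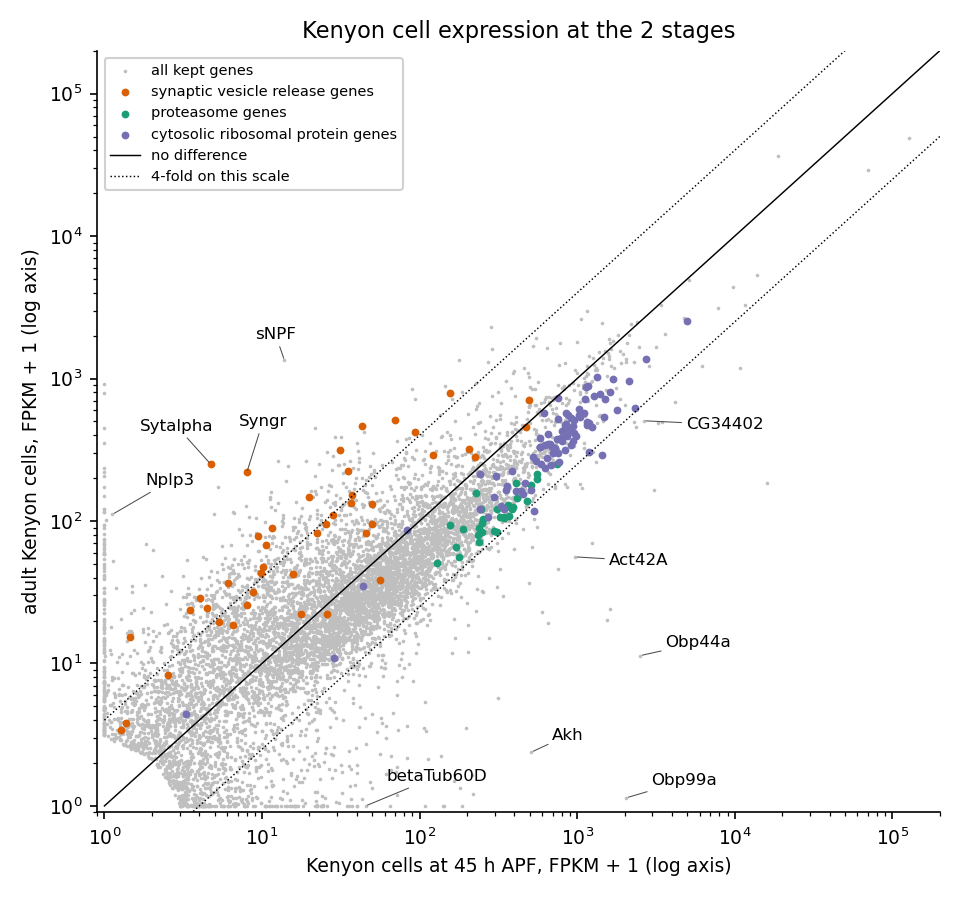
Each point is a gene kept in KC, with its FPKM + 1 at 45 h APF on the x axis and in the adult on the y axis (both log axes, 1 value per stage). Synaptic vesicle release genes (orange) lie mostly above the line of no difference, and proteasome (green) and cytosolic ribosomal protein genes (purple) mostly below it. Dotted lines mark 4-fold on this scale.

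The largest adult-high protein-coding genes held neuropeptide and synaptic vesicle genes. The short neuropeptide F gene sNPF (chromosome arm 2L, 20027915 to 20056373 in the Ensembl annotation of the dm6 assembly), whose peptide is released by many Kenyon cells, stood at 1343 FPKM in adult KC and 12.9 FPKM at 45 h APF, a difference of 6.60. In PN it stood at 8.68 adult and 37.0 pupal FPKM (-1.97) and in DN at 145 adult and 52.0 pupal FPKM (1.46). Adult KC held the highest of the 6 values, while at 45 h APF the KC value was below those of PN and DN.

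A second peptide precursor gene, Nplp3 (chromosome arm 3L, 16318024 to 16318690), stood at 110.4 FPKM in adult KC and 0.124 FPKM at 45 h APF (6.63). PN and DN held between 0.411 and 7.19 FPKM of it at both stages, so adult KC alone passed 10 FPKM among these 6 values. CG11099, which shares its locus string in the table with 1 other gene so that reads of the pair may not be separable, stood at 101 FPKM in adult KC and 0.0209 FPKM at 45 h APF (6.65). It was also high in adult PN (146 FPKM) and DN (265 FPKM) and listed at 0 in both at 45 h APF, so its difference had the same sign in all 3 populations. Sytalpha, a synaptotagmin gene (chromosome arm 2L, 17592260 to 17604387) that shares its locus string with 1 other gene, stood at 249.8 FPKM in adult KC and 3.72 FPKM at 45 h APF (5.73, beside 3.57 in PN and 2.68 in DN). Syngr, which encodes the vesicle protein synaptogyrin, stood at 219 adult and 7.01 pupal FPKM (4.78). Others among the 20 largest were Ppcs, of coenzyme A synthesis (171 adult and 4.29 pupal FPKM), Mkp3, a phosphatase of MAP kinases (115.3 adult and 5.58 pupal FPKM), and CG5549, the glycine transporter gene GlyT (32.9 adult and 0.180 pupal FPKM). CG7214, with no role given here, stood at 61.4 FPKM in adult KC and 1.03 FPKM at 45 h APF (4.94) and at or below 1.058 FPKM in PN and DN.

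The protein-coding genes with the largest adult-low differences included Obp99a, Obp44a, Akh and Hsp67Bc. The odorant-binding protein gene Obp99a (chromosome arm 3R, 29671657 to 29672334) stood at 0.140 FPKM in adult KC and 2049 FPKM at 45 h APF (-10.81), and Obp44a, which shares its locus string with 1 other gene, at 10.4 adult and 2514 pupal FPKM (-7.79). Both were also low in the adult in PN (-7.80 and -8.91) and in DN (-9.67 and -7.28). Obp44a is on the glial list used here, and 3 further glial genes were over 4-fold lower in adult KC. These were zyd, an ion exchanger gene of glia (2.52 adult and 105 pupal FPKM), wrapper, an immunoglobulin gene of glia (0.344 adult and 49.0 pupal FPKM), and repo. By contrast the astrocyte gene alrm stood at 8.04 FPKM in adult KC and 9.70 FPKM at 45 h APF, and Gs2, a glutamine synthetase gene, at 61.2 adult and 22.1 pupal FPKM. Further genes of this group were the small heat shock gene Hsp67Bc (183 adult and 15906 pupal FPKM), the cytochrome b561 gene nemy (19.3 adult and 1552 pupal FPKM), the P450 gene Cyp4g15 (2.53 adult and 196 pupal FPKM) and the sterol carrier gene Npc2b (1.12 adult and 112 pupal FPKM).

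Neuropeptide and hormone genes had members of both directions. Of 23 kept of 47 neuropeptide genes, 7 were at least 2-fold higher and 6 at least 2-fold lower in adult KC, beside 19.5% and 24.6% of all kept genes. Among the lower ones, Akh (chromosome arm 3L, 4141467 to 4142070), which encodes the adipokinetic hormone of the corpora cardiaca, stood at 1.39 FPKM in adult KC and 512 FPKM at 45 h APF (-7.75), and no PN or DN value passed 2.07 FPKM. The pupal KC value of Akh thus stood alone among the 6. The corazonin gene Crz stood at 1.36 adult and 20.6 pupal FPKM in KC, with 22.99 adult and 23.7 pupal FPKM in DN. The leucokinin gene Lk, which shares its locus string with 2 other genes, stood at 3.68 adult and 26.7 pupal FPKM in KC. ETHR, the receptor of ecdysis triggering hormone, stood at 0.465 FPKM in adult KC and 47.6 FPKM at 45 h APF (-5.05, beside -1.87 in PN and -0.84 in DN). The bursicon receptor gene rk stood at 1.88 adult and 13.5 pupal FPKM (-2.33). CG14075 (chromosome arm 3L, 18984961 to 18985634), with no role given here, stood at 0.213 FPKM in adult KC and 217 FPKM at 45 h APF (-7.49), while PN held 0.132 adult and 0.946 pupal FPKM and DN 9.16 adult and 6.55 pupal FPKM.

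To separate these differences by what PN and DN did, each 4-fold gene in KC was read beside the same difference there. Of the 1086 genes, 575 (52.9%) were at least 2-fold different in the same direction in both PN and DN, 306 (28.2%) in 1 of them, 149 (13.7%) had a mean under 1 FPKM in PN or DN, and 56 (5.16%) were under 2-fold or opposite in both. Among all kept genes, 22.1% were at least 2-fold higher in the adult in PN and 11.3% in DN, and 30.3% in PN and 20.3% in DN were at least 2-fold lower. At 4-fold, 12% in PN and 3.16% in DN were higher and 10.8% in PN and 5.66% in DN were lower in the adult. As deposited, of the genes measurable in all populations, 81.6% of the adult-low ones were low in PN and DN too, and 46.2% of the adult-high ones were high there. Over all kept genes, lower ones at 2-fold were also the more frequent in PN and in DN. The share of all kept genes passing in both together was not counted, so these shares show no difference between the directions. Most of the adult-high genes shared with 1 population were shared with PN (240, against 16 with DN). Across the 8079 genes the KC difference had a Pearson correlation of 0.73 with the PN and 0.65 with the DN difference, a description across genes that share stage, sequencer and read length.

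**Figure D2:**
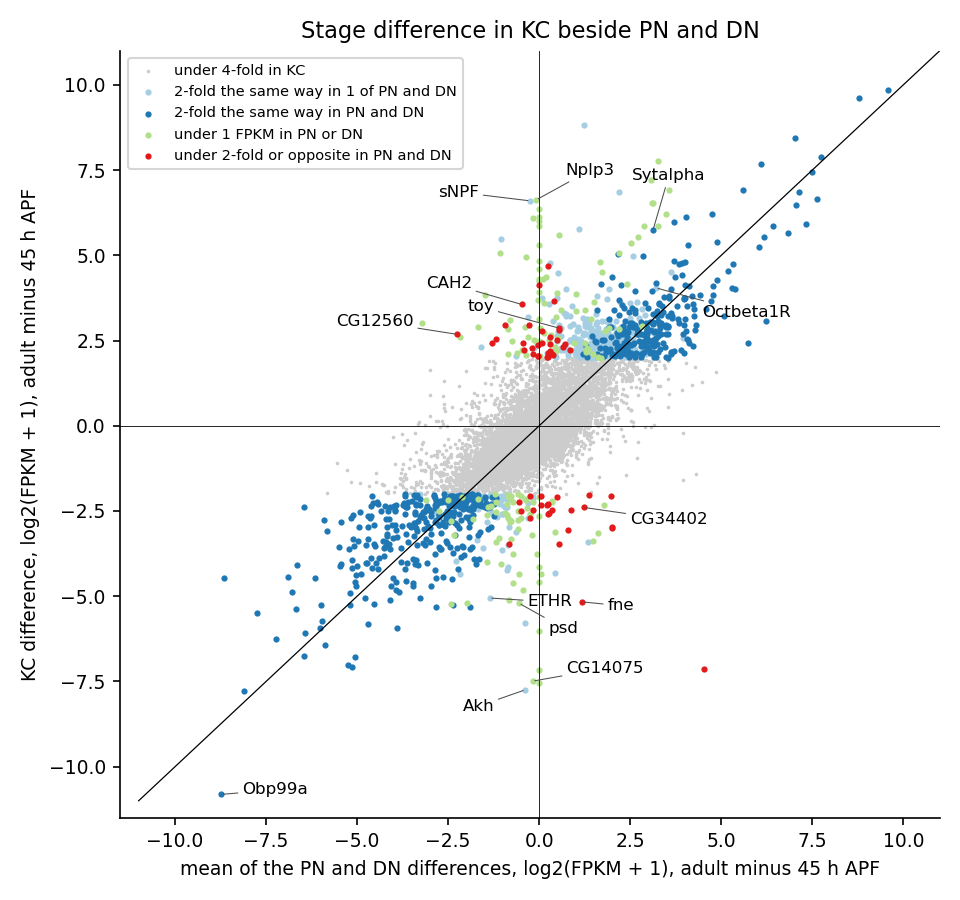
Each point is a gene kept in KC, with the mean of its PN and DN differences on the x axis and its KC difference on the y axis, both as log2(FPKM + 1), adult minus 45 h APF. Genes 4-fold different in KC and at least 2-fold the same way in PN and DN are dark blue. The genes sNPF, Nplp3, Akh and CG14075 lie within 1 of 0 on the x axis, and the 56 genes under 2-fold or opposite in both other populations are red.

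The 56 genes under 2-fold or opposite in PN and DN were 32 adult-high and 24 adult-low ones, of which 22 and 17 are protein-coding, and whether KC differed from PN and DN could not be tested. The carbonic anhydrase gene CAH2 (chromosome arm 3L, 12177601 to 12183347) stood at 304 FPKM in adult KC and 24.9 FPKM at 45 h APF (3.56), with 0.813 adult and 4.70 pupal FPKM in PN (-1.65) and 6.16 adult and 3.44 pupal FPKM in DN (0.69). The Pax6 gene toy (chromosome 4, 989725 to 1007922), known from Kenyon cells, stood at 263 adult and 35.3 pupal FPKM in KC (2.86), at 29.2 adult and 15.7 pupal FPKM in PN, and at 46.9 adult and 39.3 pupal FPKM in DN. Its paralog ey had a KC difference of 0.27. Thus 1 of the Pax6 genes was over 4-fold higher in adult KC and the other was within 2-fold.

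The gene a (arc), a PDZ domain protein gene that shares its locus string with 4 others, stood at 104.5 FPKM in adult KC and 12.7 FPKM at 45 h APF (2.95), with -0.23 in PN and -0.32 in DN. Dh44-R1, a receptor of a diuretic hormone, stood at 24.3 adult and 2.64 pupal FPKM (2.80). At 45 h APF its KC value was the lowest of the populations, beside 28.0 FPKM in PN and 41.7 FPKM in DN. The peptidase gene ome (25.4 adult and 3.86 pupal FPKM, with 8 other genes under its locus string) and CG5522, the Ral exchange factor gene RalGPS (35.02 adult and 5.26 pupal FPKM), had the same form. So did the calcium/calmodulin kinase gene CaMKI, at 204 FPKM in adult KC and 46.8 FPKM at 45 h APF (2.10). For CaMKI the KC value at 45 h APF was below those of PN (144 FPKM) and DN (172 FPKM), and in the adult all 3 lay between 105 and 204 FPKM.

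Among the 24 adult-low genes, the ELAV family gene fne was listed at 0 FPKM in adult KC and stood at 34.9 FPKM at 45 h APF, while adult PN held 299 FPKM. The files do not say whether such a 0 was a failed estimate. Of the 24 adult-low genes 7 rest on a value of 0 in KC, as do 7 of the 32 adult-high ones. Prosap, the Shank family scaffold gene of the postsynaptic density, was likewise listed at 0 in adult KC and at 4.53 FPKM at 45 h APF. Nep2, a neprilysin peptidase gene, stood at 1.57 FPKM in adult KC and 27.7 FPKM at 45 h APF (-3.48), with -0.71 in PN and 1.78 in DN. CG34402, now named Sol1 and sharing its locus string with 4 genes, stood at 504 FPKM in adult KC and 2659 FPKM at 45 h APF. In PN it stood at 14.4 adult and 4.97 pupal FPKM and in DN at 14.2 adult and 6.17 pupal FPKM, so KC held the most at both stages and its difference had the opposite sign.

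**Figure D3:**
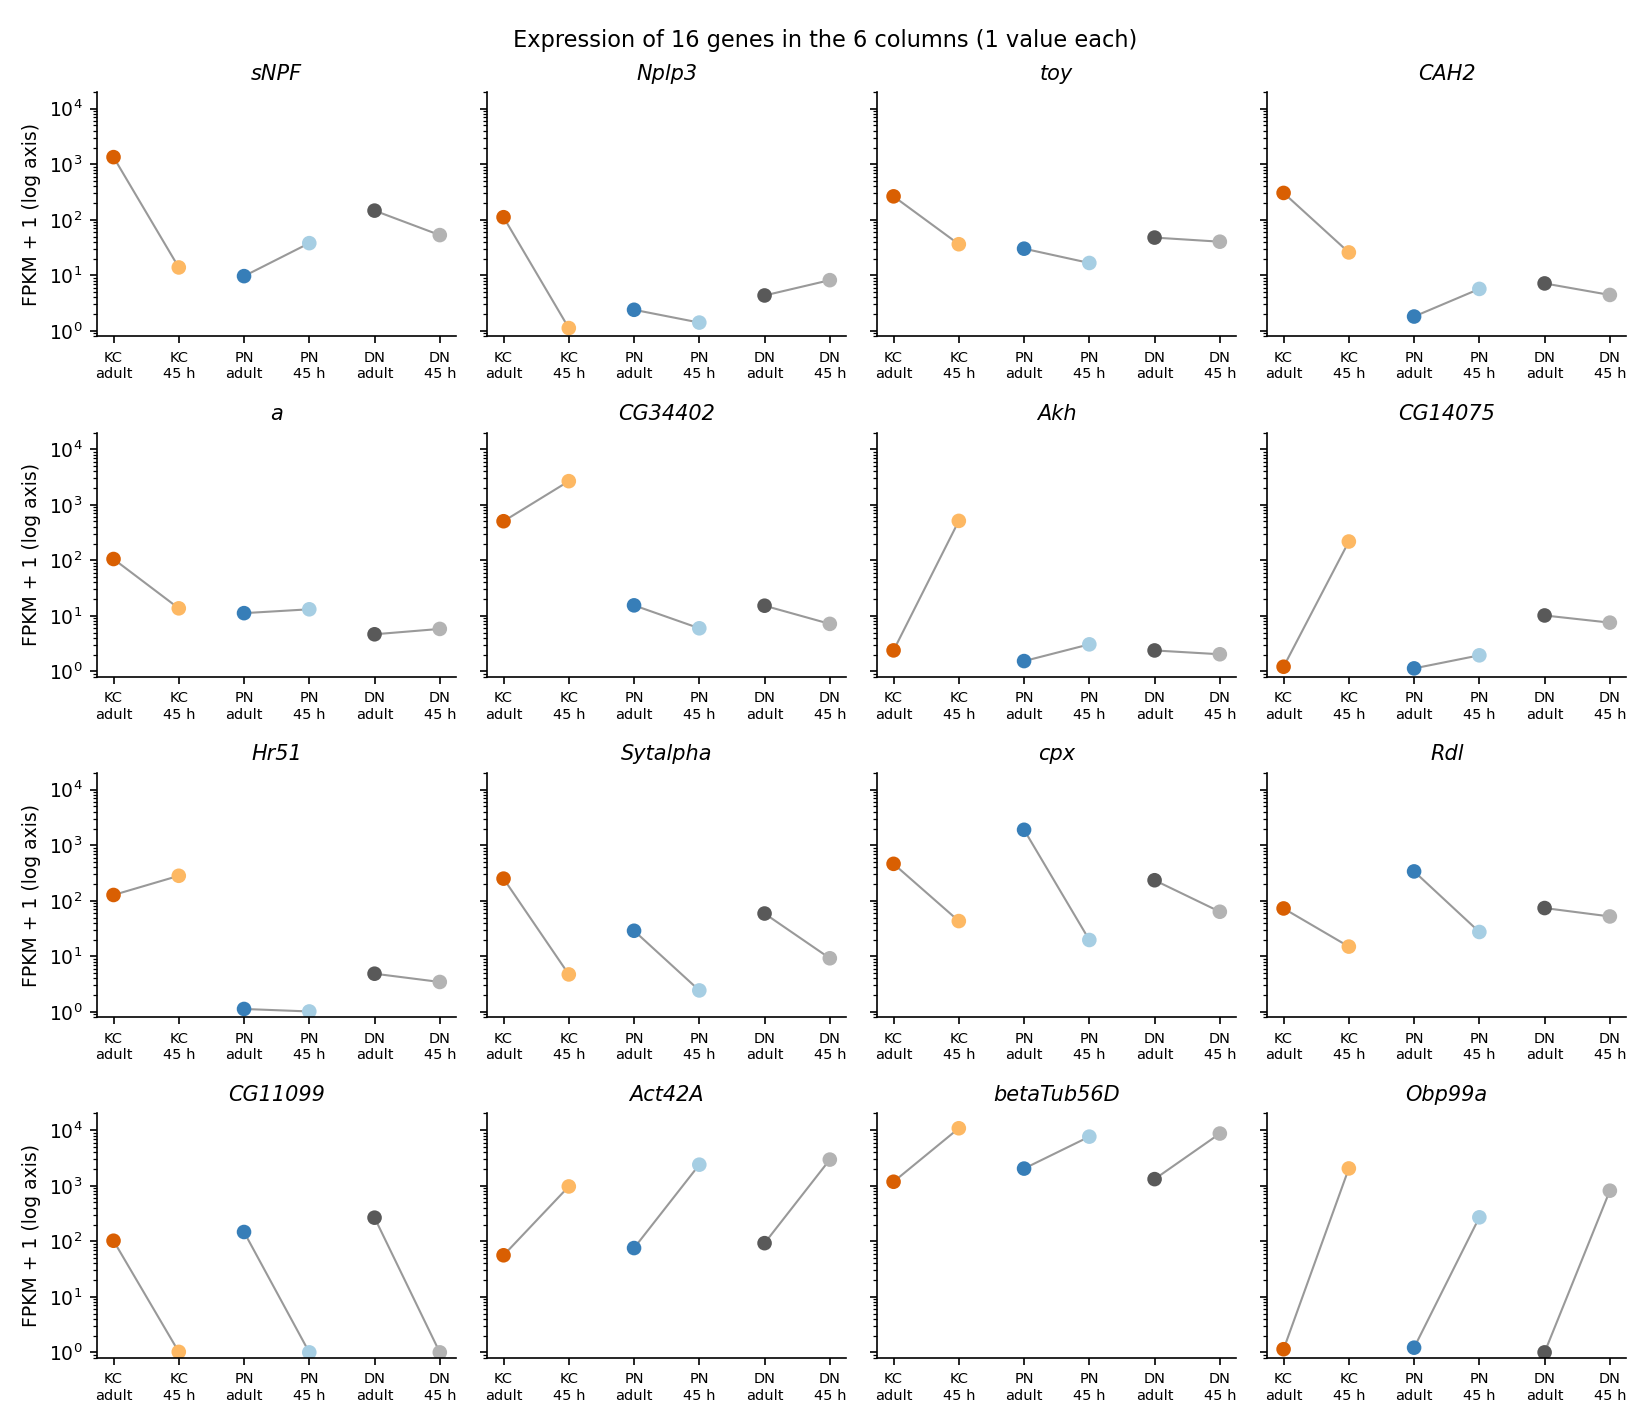
FPKM + 1 (log axis) of 16 genes in the 6 columns of the table, 1 value each, with the adult and the 45 h APF value of a population joined by a line. In the upper panels sNPF, Nplp3, toy, CAH2 and a differ between the stages mainly in KC, CG34402, Akh and CG14075 are lower in adult KC, and in the lower panels CG11099, Act42A, betaTub56D and Obp99a differ the same way in all 3 populations.

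Kenyon cell genes were mostly higher in the adult. Of 19 kept members, 15 were at least 2-fold higher and 1 was lower, with a median of 1.43 beside -0.31 over all kept genes (2.14 in PN and 0.64 in DN). Relative to their length classes the median was 0.77. The learning genes of this list included 14-3-3zeta, the gene leonardo (2318 adult and 283 pupal FPKM), the adenylyl cyclase gene rut (78.8 adult and 16.6 pupal FPKM), the phosphodiesterase gene dnc (28.6 adult and 8.26 pupal FPKM) and the protein kinase A gene Pka-C1 (279 adult and 88.7 pupal FPKM). Among the transcription factor genes, toy had the difference of 2.86 given above, Mef2 stood at 125 adult and 49.7 pupal FPKM (1.32), and dac and ey had differences of 0.99 and 0.27. The member lower in the adult was Hr51, the nuclear receptor gene also called unfulfilled, which Kenyon cell axons need for regrowth. It stood at 126 FPKM in adult KC and 281 FPKM at 45 h APF (-1.15), and at or below 3.87 FPKM in PN and DN.

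Genes that mark the birth order of mushroom body neurons were higher in the adult than at 45 h APF. Of 10 such genes, 7 were kept and 6 were at least 2-fold higher in the adult (median 1.57, and 0.70 relative to length). The RNA-binding protein gene Imp, which marks the earliest born neurons, stood at 10.8 FPKM in adult KC and 1.98 FPKM at 45 h APF, and its counterpart Syp, of late born neurons, at 13.6 adult and 8.01 pupal FPKM. The transcription factor genes chinmo (4.16 adult and 0.724 pupal FPKM), mamo (12.98 adult and 3.08 pupal FPKM) and ab (39.4 adult and 12.6 pupal FPKM) had the same direction. All these members are in the longest class of genes, and all 7 had a larger difference in PN than in KC.

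Ecdysone genes were mixed. Of 28 kept of 36, 13 were at least 2-fold higher and 5 at least 2-fold lower in adult KC (median 0.54, 0.32 relative to length). The receptor gene EcR stood at 15.6 FPKM in the adult and 4.35 FPKM at 45 h APF, and its partner usp at 75.2 adult and 64.7 pupal FPKM. The ecdysone importer gene Oatp74D (also called EcI) stood at 0.910 FPKM in adult KC and 22.02 FPKM at 45 h APF (-3.59), the response gene Hr4 at 1.72 adult and 12.3 pupal FPKM (-2.29), and ImpL2 at 0.465 adult and 16.1 pupal FPKM (-3.54). These were low in adult PN and DN as well. On the adult-high side were ftz-f1 (4.99 adult and 0.0288 pupal FPKM), Hr39 (17.9 adult and 2.49 pupal FPKM), Eip74EF (6.69 adult and 1.20 pupal FPKM) and Hr38, a nuclear receptor gene that is also induced by neuronal activity (22.8 adult and 0.539 pupal FPKM). Of a list of 15 TGF-beta genes of axon remodelling, which also holds BMP genes, 10 were kept, with 4 higher and 1 lower. The receptor gene babo stood at 17.0 FPKM in adult KC and 2.66 FPKM at 45 h APF, its signal transducer Smox at 233 adult and 72.0 pupal FPKM, and the BMP ligand gene gbb at 3.97 adult and 11.7 pupal FPKM.

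Of the genes of synaptic vesicle release, most were higher in adult KC. All 43 listed genes that were matched by name were kept, 34 were at least 2-fold and 20 at least 4-fold higher in the adult, and none was 2-fold lower. The median was 1.90 in KC, 3.65 in PN and 1.21 in DN, and 1.26 in KC relative to length, with 41 of 43 above the median of their length class. The complexin gene cpx, a clamp and activator of vesicle fusion, stood at 462 FPKM in adult KC and 42.1 FPKM at 45 h APF. The calcium sensor gene Syt1 stood at 146 adult and 18.8 pupal FPKM, the SNARE gene nSyb at 787 adult and 156 pupal FPKM, and the active zone gene brp at 24.9 adult and 7.08 pupal FPKM. Members of the general membrane fusion machinery differed less, such as the Sec1 family gene Rop (0.52), alphaSnap (0.31) and Nsf2 (-0.21). For 37 of the 43 genes the KC difference was below that of PN, and for 34 it was above that of DN, where over all kept genes these shares were 49.1% and 47.1%.

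Of 11 pan-neuronal genes, 10 were at least 2-fold higher in adult KC (median 2.13), beside 19.5% of all kept genes. The other one, fne, went the opposite way, listed at 0 in the adult and at 34.9 FPKM at 45 h APF (-5.17). All but elav, Rbp9 and fne are also on the vesicle or a channel list. The neuronal RNA-binding protein gene elav, which shares its locus string with 2 genes, stood at 83.4 FPKM in adult KC and 16.004 FPKM at 45 h APF (2.31), beside 36.2 adult and 32.8 pupal FPKM in DN (0.14). For all 11 genes, elav included, the KC difference was below that of PN, and for 8 it was above that of DN. Over all kept genes these shares were 49.1% and 47.1%. The list medians were 3.84 in PN and 1.16 in DN.

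Ion channel genes were also mostly adult-high. Of 17 sodium, calcium and leak channel genes, 13 were at least 2-fold higher and none lower (median 1.55, 0.67 relative to length). The sodium channel gene para stood at 4.30 FPKM in adult KC and 1.08 FPKM at 45 h APF, and its auxiliary subunit genes Teh2 at 55.5 adult and 6.64 pupal FPKM and Teh3 at 95.6 adult and 12.6 pupal FPKM. Of 20 kept potassium channel genes, 12 were higher and 2 lower, with Sh at 34.1 adult and 5.41 pupal FPKM, Shab at 23.9 adult and 4.06 pupal FPKM, and the inward rectifier gene Irk3 at 0.974 adult and 21.7 pupal FPKM. The KC medians were below those of PN in both lists, whose PN medians were 3.40 and 2.62.

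**Figure D4:**
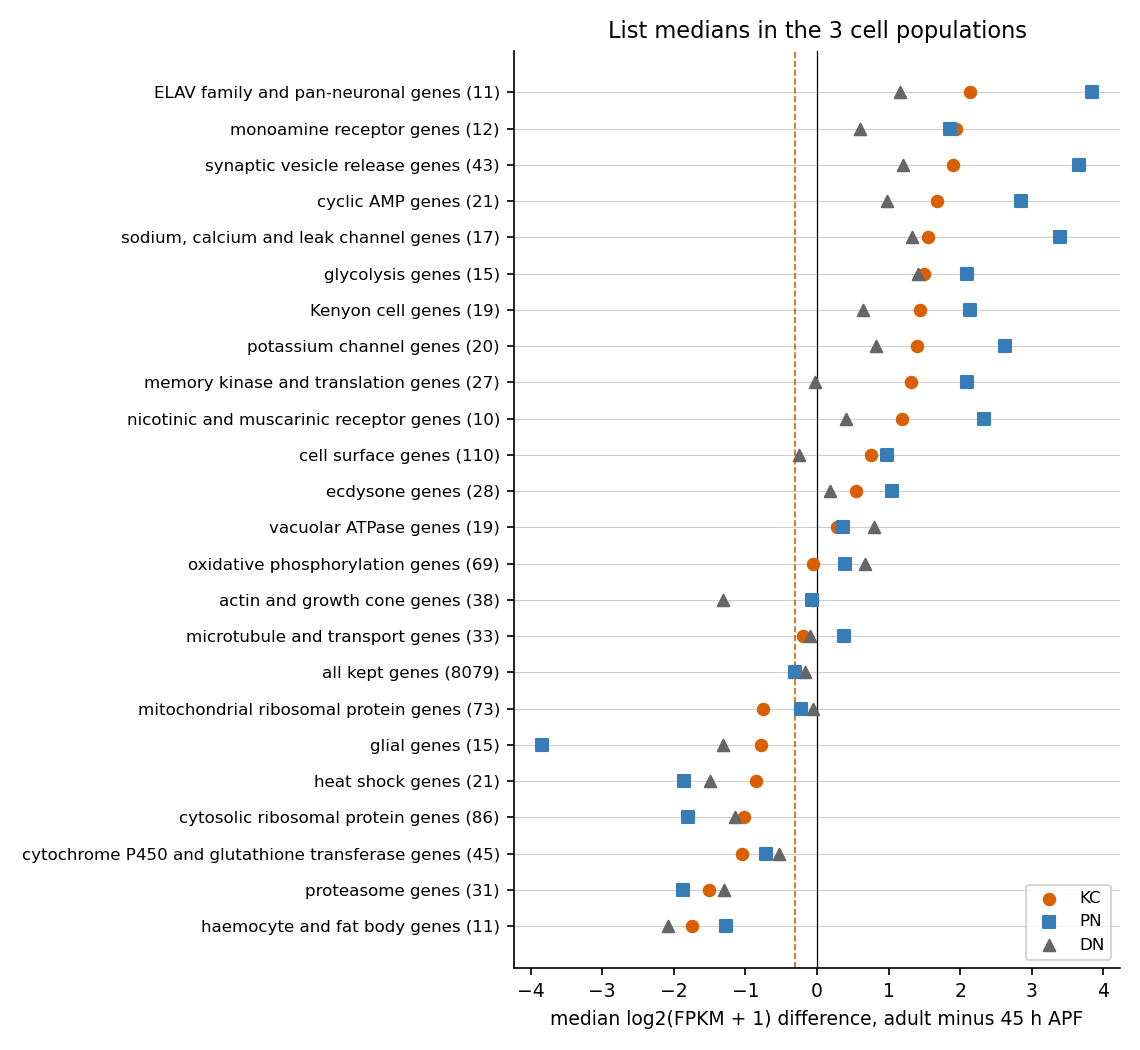
Median difference of each gene list in KC (circles), PN (squares) and DN (triangles), as log2(FPKM + 1), adult minus 45 h APF, over the members kept in KC (number in parentheses), with a dashed line at the KC median of all kept genes (-0.31). Neuronal lists lie right of 0 in KC between the PN and DN medians in most cases, and proteasome and ribosomal lists lie left of 0 in all 3 populations, as deposited. The KC medians of the actin, microtubule and oxidative phosphorylation lists lie above 0 when columns are scaled to the same sum.

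Receptors for the transmitters of projection neurons and of the modulatory neurons differed by class. Of 12 kept monoamine receptor genes, 9 were at least 2-fold higher in adult KC and none lower (median 1.95, 1.07 relative to length). The octopamine receptor gene Octbeta1R stood at 241 FPKM in the adult and 13.6 FPKM at 45 h APF (4.04). The dopamine receptor gene Dop1R1, needed in Kenyon cells for aversive and appetitive learning, stood at 119 adult and 21.3 pupal FPKM (2.43), Dop2R at 21.5 adult and 3.50 pupal FPKM, and Dop1R2 at 15.8 adult and 6.97 pupal FPKM. DopEcR, which binds dopamine and ecdysone, stood at 49.3 adult and 6.502 pupal FPKM, and the serotonin receptor genes 5-HT1A and 5-HT1B at 16.8 adult and 2.20 pupal FPKM and at 25.7 adult and 2.52 pupal FPKM. KC had larger differences than PN and DN for both serotonin receptors (PN 1.03 and 1.56, DN 0.65 and 0.94). Over the list, however, the KC difference was below that of PN for 9 of the 12 genes, Octbeta1R among them (5.43 in PN). It was above that of DN for 10 of the 12. Over all kept genes these shares were 49.1% and 47.1%. The list medians were 1.85 in PN and 0.60 in DN.

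Of 10 kept nicotinic and muscarinic receptor genes, 6 were at least 2-fold higher and 1 was lower in adult KC, beside 19.5% and 24.6% of all kept genes. The median was 1.18 in KC, 2.33 in PN and 0.41 in DN, and 0.42 in KC relative to length. For 8 of the 10 genes the KC difference was below that of PN, and for 9 it was above that of DN. The genes nAChRalpha4 (20.9 FPKM in the adult and 3.46 FPKM at 45 h APF), nAChRalpha5 (13.9 adult and 3.07 pupal FPKM) and nAChRalpha6 (15.4 adult and 1.90 pupal FPKM) were over 2-fold higher in adult KC. The subunit gene nAChRbeta1 stood at 212 adult and 93.2 pupal FPKM. By contrast nAChRalpha2 stood at 119 FPKM in adult KC and 278 FPKM at 45 h APF (-1.21), and nAChRbeta2 at 244 adult and 321 pupal FPKM. At 45 h APF these last genes thus held the highest nicotinic FPKM in KC. Among GABA and glutamate receptor genes the GABA-A receptor gene Rdl stood at 71.8 FPKM in adult KC and 13.97 FPKM at 45 h APF, GABA-B-R1 at 22.1 adult and 2.48 pupal FPKM, and its partner GABA-B-R2 at 178 adult and 194.9 pupal FPKM. Of the pair of NMDA receptor genes, Nmdar2 stood at 27.8 adult and 6.24 pupal FPKM and Nmdar1 at 26.3 adult and 24.7 pupal FPKM, so that in both receptors 1 subunit gene was over 2-fold higher in the adult and the other within 1.5-fold.

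Kenyon cells use acetylcholine, and its genes were adult-high. ChAT, which makes it, stood at 89.8 FPKM in adult KC and 14.8 FPKM at 45 h APF (2.53), and the vesicular transporter gene VAChT at 40.4 adult and 2.14 pupal FPKM (3.72). The 2 genes lie in 1 locus, so reads may have been split between them. Over the list of 10 transmitter genes the medians were 0.96 in KC, 2.79 in PN and 0.99 in DN. Genes of other transmitters were present too: Gad1, which makes GABA, at 25.1 adult and 2.37 pupal FPKM, and the glutamate transporter gene VGlut at 3.85 adult and 11.3 pupal FPKM. Ddc, of dopamine and serotonin synthesis, stood at 158 adult and 10.4 pupal FPKM, and the dopamine transporter gene DAT at 92.8 adult and 207 pupal FPKM in KC, beside 0.652 adult and 34.4 pupal FPKM in PN and 75.4 adult and 40.9 pupal FPKM in DN.

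Downstream signalling genes of learning were adult-high in KC. In the cyclic AMP list, 15 of 21 kept genes were at least 2-fold higher and 2 lower (median 1.68, 1.05 relative to length). Of the same 21, 18 were at least 2-fold higher in adult PN (median 2.85) and 10 in adult DN (0.97). The KC difference was below that of PN for 18 genes and above that of DN for 17. The cyclase gene Ac3 stood at 18.6 FPKM in the adult and 2.76 FPKM at 45 h APF and the kinase subunit gene Pka-R2 at 198 adult and 42.2 pupal FPKM, while the cyclase gene Ac78C stood at 3.92 adult and 16.03 pupal FPKM. Among 27 kept memory kinase and translation genes, 21 were higher and none lower (median 1.32 in KC, 2.10 in PN and -0.03 in DN, and 0.74 in KC relative to length). These counts leave out the list entry Shank, which was not matched by name. Its line is that of Prosap, listed at 0 in adult KC and at 4.53 FPKM at 45 h APF (-2.47). CaMKII stood at 95.9 adult and 17.4 pupal FPKM, the scaffold gene CASK at 62.2 adult and 10.2 pupal FPKM, the protein kinase C gene Pkc53E at 98.7 adult and 12.3 pupal FPKM, and the translation regulator genes orb2 at 23.3 adult and 5.25 pupal FPKM and Fmr1 at 33.2 adult and 10.5 pupal FPKM. In DN the same genes had differences of -0.37 (CaMKII), 1.24 (CASK), 0.93 (Pkc53E), 1.07 (orb2) and -0.31 (Fmr1). Over the 27 genes the KC difference was above that of DN for 23 but below that of PN for 19. Over all kept genes these shares were 47.1% and 49.1%.

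The title of the study names cell surface molecules, and the 158 genes of all surface families were followed between the stages. In KC 77 of them reached 5 FPKM in the adult and 67 at 45 h APF. Of 110 kept, 41 were at least 2-fold higher and 11 at least 2-fold lower in the adult. The median was 0.75 in KC, 0.97 in PN and -0.25 in DN. As 69 of the 110 are in the longest class of genes, the KC median relative to length was 0.19, with 62 above and 48 below the median of their class.

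Within the dpr and DIP genes, which encode binding partners with immunoglobulin domains, dpr9 (81.9 FPKM in adult KC and 8.21 FPKM at 45 h APF) and dpr6 (12.9 adult and 1.64 pupal FPKM) were over 4-fold higher. DIP-gamma was lower in the adult, at 7.09 adult and 27.7 pupal FPKM, and was the member furthest in that direction. The dpr gene with the highest FPKM, dpr19, differed little, at 189 adult and 155 pupal FPKM, as did CG31814, now DIP-kappa (46.1 adult and 44.4 pupal FPKM). In the beat and side families beat-VII had the largest difference, at 17.7 FPKM in adult KC and 1.38 FPKM at 45 h APF, while beat-IV (48.4 adult and 40.9 pupal FPKM) differed little. Kept receptor tyrosine phosphatase genes all had differences above 0, among them Lar at 18.7 adult and 6.03 pupal FPKM and IA-2, of dense core vesicles, at 126 adult and 6.94 pupal FPKM.

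Adhesion and guidance genes held members of both directions. The neurexin gene Nrx-1 stood at 151 FPKM in adult KC and 28.6 FPKM at 45 h APF (2.36), the calsyntenin gene Cals at 97.1 adult and 16.2 pupal FPKM, and the adhesion gene Fas2, a marker of mushroom body lobes, at 78.7 adult and 35.02 pupal FPKM. The plexin genes PlexA (5.22 adult and 0.576 pupal FPKM) and PlexB (8.33 adult and 0.724 pupal FPKM) and the genes Eph (25.3 adult and 6.65 pupal FPKM) and Ephrin (17.2 adult and 3.46 pupal FPKM), a receptor and its ligand, were over 2-fold higher. On the other side, the Wnt co-receptor genes otk (3.17 adult and 28.6 pupal FPKM) and otk2 (1.26 adult and 19.7 pupal FPKM) were over 4-fold lower in adult KC. The leucine-rich repeat gene rdo stood at 1.53 adult and 9.45 pupal FPKM, beside 69.2 adult and 50.2 pupal FPKM in PN.

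Cytoskeleton genes lay in both directions, and their list medians change sign with the scaling. The actin and growth cone list had a KC median of -0.08 as deposited and 0.46 with columns of the same sum, and the microtubule list -0.20 and 0.33. As deposited, 9 genes were 2-fold higher and 10 lower of 38 in the actin list, and 9 higher and 8 lower of 33 in the microtubule list. Over all kept genes 19.5% were higher and 24.6% lower, so these counts alone do not set the lists apart. The cytoplasmic actin gene Act42A stood at 55.0 FPKM in adult KC and 971 FPKM at 45 h APF (-4.12), while its near-identical copy Act5C stood at 2012 adult and 2146 pupal FPKM, and reads of the pair may have been split between them. Of the WAVE complex, which drives branched actin assembly and whose members were singled out here after their values were seen, HSPC300 (89.5 adult and 557 pupal FPKM), Sra-1 (23.5 adult and 105 pupal FPKM) and Hem (24.3 adult and 80.1 pupal FPKM) were over 2-fold lower in the adult. Its other subunits Abi (-0.21) and SCAR (0.12) were within 1.2-fold as deposited. KC differed from DN in this list by size: the KC difference lay below that of DN for 5 of 38 genes as deposited, for 4 after upper quartile scaling and for 9 of 39 after quantile normalization, and the DN median was -1.31. The cofilin gene tsr, for example, had differences of -1.61 in KC, -3.81 in PN and -3.68 in DN.

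All 7 kept tubulin genes of the list were lower in adult KC. The major beta-tubulin gene betaTub56D stood at 1179.8 FPKM in adult KC and 10843 FPKM at 45 h APF (-3.20) and alphaTub84B at 1228 adult and 6168 pupal FPKM (-2.33). The developmental genes betaTub60D (listed at 0 in the adult and 44.4 FPKM at 45 h APF) and alphaTub85E (0.0553 adult and 29.9 pupal FPKM) were low in adult KC. Several genes of microtubule-bound proteins lay on the other side, with tau at 131 FPKM in adult KC and 32.1 FPKM at 45 h APF, stai, the stathmin gene, at 226 adult and 50.2 pupal FPKM, and the kinesin gene unc-104, which carries synaptic vesicle precursors, at 112 adult and 21.4 pupal FPKM.

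**Figure D5:**
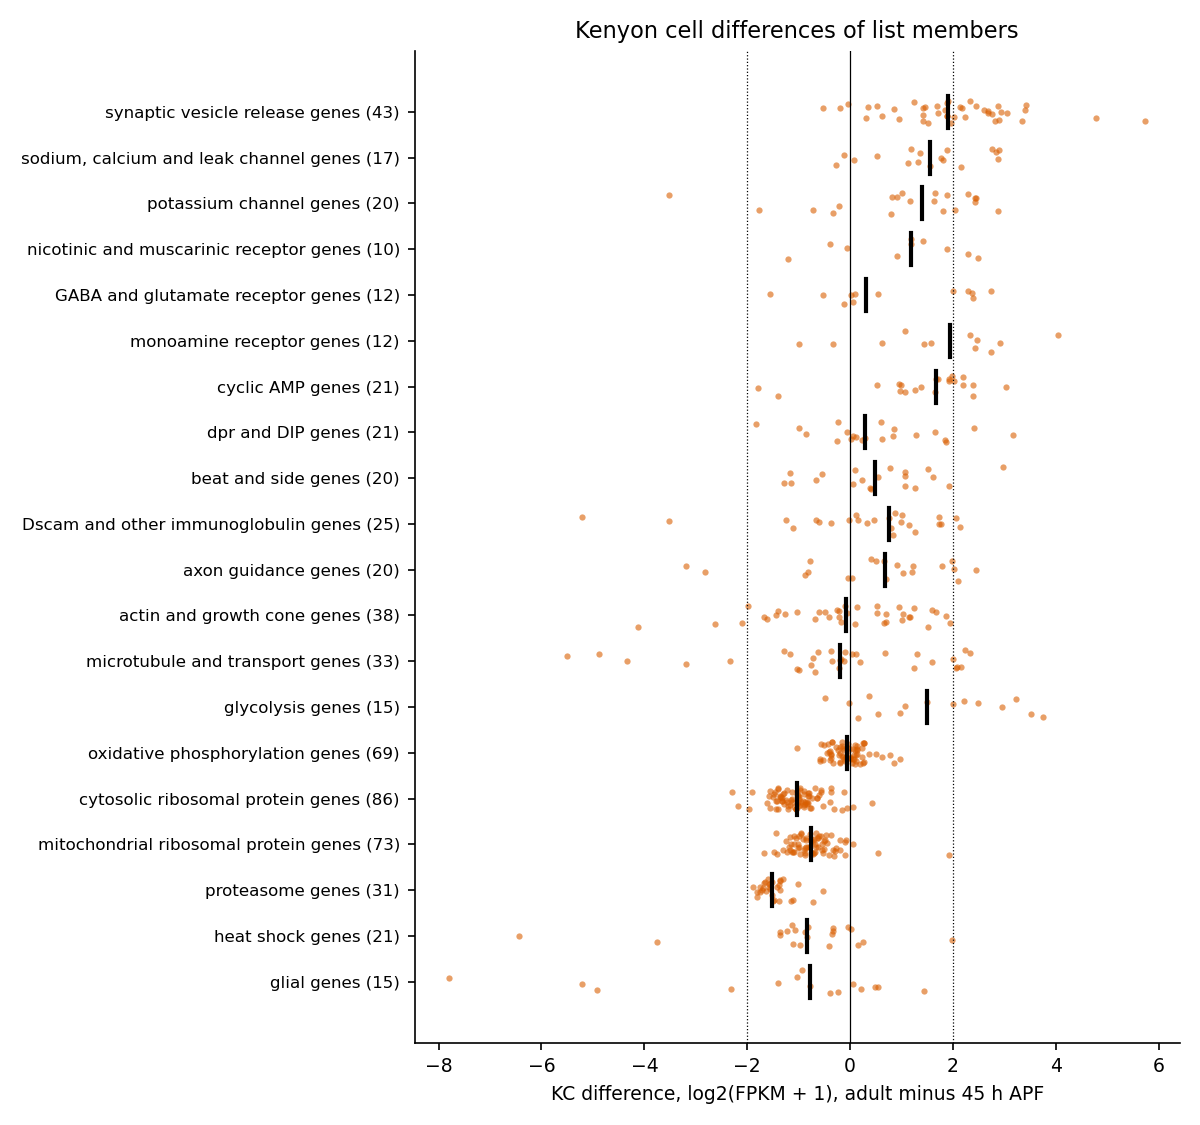
KC difference of every kept member (points, jittered vertically) of 20 gene lists, as log2(FPKM + 1), adult minus 45 h APF, with the list median as a black bar and dotted lines at 4-fold. Ribosomal, proteasome and oxidative phosphorylation genes form narrow groups, while the microtubule, heat shock and glial lists reach below -4. As deposited, the actin, microtubule and oxidative phosphorylation medians lie just below 0, and scaling the columns to the same sum puts them above it.

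Genes of protein synthesis and degradation were lower in adult KC. None of 86 kept cytosolic ribosomal protein genes was 2-fold higher and 46 were 2-fold lower (median -1.03 in KC, -1.81 in PN and -1.15 in DN, and -0.49 in KC relative to length). The median lies at the 2-fold threshold, and with columns of the same sum it was -0.48 and 8 genes were 2-fold lower. RpL10Ab stood at 291 FPKM in adult KC and 1443 FPKM at 45 h APF, and RpL15 at 728 adult and 755 pupal FPKM. Of 31 kept proteasome genes, 29 were 2-fold lower and none higher (median -1.52, and -0.94 relative to length), and 15 with columns of the same sum. The regulatory subunit gene Rpn7 stood at 82.4 adult and 308 pupal FPKM and the catalytic core gene Prosbeta2 at 106 adult and 344 pupal FPKM.

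In the mitochondrial lists most KC differences lay below those of both PN and DN. The 73 mitochondrial ribosomal protein genes had a median of -0.76 in KC, -0.23 in PN and -0.05 in DN, with 20 at least 2-fold lower in adult KC, 2 in PN and 1 in DN (24.6%, 30.3% and 20.3% of all kept genes). Relative to length the KC median was -0.23, and with columns of the same sum 1 gene was 2-fold lower in KC. The KC difference lay below that of PN for 67 of the 73 and below that of DN for 70, against 49.1% and 52.9% of all kept genes. Scaled to the same sum these counts were 65 and 68, and after quantile normalization 64 and 68. mRpS22 stood at 29.3 FPKM in adult KC and 96.1 FPKM at 45 h APF (-1.68, beside -0.93 in PN and -0.34 in DN), while mRpS5 was the member over 2-fold higher (120.0 adult and 30.9 pupal FPKM).

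Oxidative phosphorylation genes had a KC median of -0.06 as deposited, which is 0.49 with columns of the same sum, and PN and DN medians of 0.39 and 0.67. None of the 69 kept genes was 2-fold higher in adult KC, against 8 in PN and 22 in DN. For 65 genes the KC difference lay below that of PN and for 66 below that of DN, against 49.1% and 52.9% of all kept genes, and after quantile normalization for 52 and 64 of 71. The cytochrome c gene Cyt-c-p stood at 1801 FPKM in adult KC and 991 FPKM at 45 h APF (0.86, beside 1.92 and 1.28 in PN and DN). Glycolysis genes by contrast were adult-high in KC, PN and DN (medians 1.499, 2.09 and 1.40). In KC 9 of 15 were at least 2-fold higher, with the glycerol-3-phosphate dehydrogenase gene Gpdh at 189 FPKM in the adult and 13.1 FPKM at 45 h APF, the hexokinase gene Hex-A at 103 adult and 8.13 pupal FPKM, and the pyruvate kinase gene PyK at 837 adult and 89.0 pupal FPKM. The lactate dehydrogenase gene ImpL3 (now Ldh) stood at 15.96 adult and 2.03 pupal FPKM in KC (2.48), with 0.10 in PN and -1.62 in DN.

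Heat shock genes had high FPKM in KC at both stages. The 24 listed genes summed to 23354 FPKM in adult KC and 59371 FPKM at 45 h APF, against 9695 adult and 51617 pupal FPKM in PN and 9765 adult and 34867 pupal FPKM in DN. In KC the small heat shock gene Hsp23 stood at 5358 adult and 13803 pupal FPKM, Hsp26 at 4408 adult and 9687 pupal FPKM, and Hsp68 at 833 adult and 1525 pupal FPKM. The inducible Hsp70 copies are near-identical and their split is uncertain, with Hsp70Bb at 350.0 adult and 733 pupal FPKM. The KC difference of the list (-0.85) was nearer to 0 than those of PN (-1.86) and DN (-1.50). Of 10 kept activity-regulated genes, 7 were at least 2-fold higher and 3 lower in adult KC, with a median of 1.37 in KC, 0.11 in PN and 0.06 in DN. The largest differences were those of Hr38 and the Egr gene sr (11.4 FPKM in adult KC and 0.0798 FPKM at 45 h APF), while Arc1 stood at 3.88 adult and 26.0 pupal FPKM.

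The highest single values in KC were of noncoding genes. CR40469 stood at 48849 FPKM in the adult and 128393 FPKM at 45 h APF, MRE16, which shares its locus string with 17 genes, at 29216 adult and 70110.1 pupal FPKM, and noe, with 1 such gene, at 36700.2 adult and 18845 pupal FPKM. In PN and DN CR40469 had differences of -4.22 and -3.36, against -1.39 in KC. Genes with a value of 0 in 1 stage differed in kind by stage. At 45 h APF 52 genes were listed at 0 while at 20 FPKM or more in the adult, of which 30 were snoRNA and 2 protein-coding genes. The reverse held for 18 genes, of which 9 were protein-coding.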

How the data were processed

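The authors deposited 1 table of FPKM values (fragments per kilobase of transcript, scaled to depth) for Kenyon cells, projection neurons and double-negative cells, with 1 column per population and stage, and per the column headers the adult columns are averages of the replicates. TopHat, Cufflinks and the dm6 genome are named in the submitters' processing notes, and whether counting used the strand is not given in the sources used here. Of 16859 lines, 5 with date-like names were left out. The depth of the adult libraries is unknown. For the pupal KC column, a scaling total of 24.1 M reads brought low values closest to whole reads, with an assumed length offset of 200 bases. Only genes with a single annotated transcript and an unshared locus string were used. At that total 98.1% of 428 values lay within 0.1 read of a whole number. This share was counted on the values that chose the total, which is not a measured depth. A 0 can be a failed estimate.

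Differences were log2(FPKM + 1), adult minus 45 h APF, for genes with a KC mean of at least 1 FPKM. No test was possible with 1 value per stage. Calls were made at 4-fold, with list members counted at 2-fold. Genes of 49 lists (1268 distinct genes) were matched by name, and 12632 gene names matched a current symbol and 3954 a synonym in the Ensembl annotation. A further 5 list entries were not matched by name (Syd-1, yu, Shank, dbt and WntD). They may stand under other names, as Shank does under Prosap, and are not counted in their lists. Exon length is the union of annotated exons. Of the kept genes, 4398 have a locus string that other genes also carry, so reads may be shared, among them cpx, Syt1, IA-2, tau, stai, Imp, Prosap, Pxn and Hr38.

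Genes were named by a rule, namely the 20 largest protein-coding differences each way with both KC values above 0, the 15 largest each way under 2-fold or opposite in both other populations, the 8 largest each way not measurable there, the 4 extremes of each list, all members of the Kenyon cell, temporal, ecdysone, TGF-beta and marker lists, the 5 highest values per column, up to 5 genes each way listed at 0 in 1 column, and up to 8 opposite in direction. Other list members are named for their role and were chosen after their values were seen. The members and lists were chosen with earlier results of these data known.

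Alternatives were pseudocounts of 0.1 and 5 FPKM, no filter and a filter at 5 FPKM, columns scaled to the same sum or upper quartile, quantile normalization, and leaving out genes listed at 0 in a KC column. The scripts were tested on simulated data and used Python 3.11.15, pandas 2.3.3, numpy 2.4.6 and matplotlib 3.10.9.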

Additional observations from a re-analysis of the deposited data

Results flagged for a closer look

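For 3 protein-coding genes, KC differed at least 4-fold in 1 direction while PN and DN both differed at least 2-fold in the other, and the difference between the populations was not tested. CG12560 stood at 29.4 FPKM in adult KC and 3.74 FPKM at 45 h APF (2.68), with differences of -2.41 in PN (0.194 adult and 5.34 pupal FPKM) and -2.11 in DN (0.676 adult and 6.22 pupal FPKM). CG34402 (Sol1) stood at 504 adult and 2659 pupal FPKM in KC (-2.40), with differences of 1.37 in PN and 1.09 in DN. Vkor, which encodes the vitamin K epoxide reductase, stood at 39.9 adult and 168 pupal FPKM in KC (-2.04), with differences of 1.52 in PN (22.5 adult and 7.17 pupal FPKM) and 1.22 in DN (21.8 adult and 8.79 pupal FPKM).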

How the results depend on the processing

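The number of genes under 2-fold or opposite in PN and DN was 92 with a pseudocount of 0.1 FPKM, 96 without a filter and 31 with a filter at 5 FPKM, against 56 as reported. A pseudocount of 5 FPKM gave 293 genes higher and 217 lower at 4-fold, 299 shared with both other populations and 28 in neither. Scaled to the same sum, 1064 genes were higher at 4-fold. List medians changed sign as follows. Without a filter they were -0.021 (cadherin), -0.065 (neuropeptide), -0.17 (neuropeptide receptor) and -0.057 (cell cycle), and with a filter at 5 FPKM 0.28 (monoamine), -0.55 (neuropeptide), -1.14 (circadian) and 0.37 (long noncoding). Scaled to the same sum they were 0.23 (all kept genes), 0.46 (actin), 0.33 (microtubule), 0.27 (monoamine), 0.49 (oxidative phosphorylation) and 0.33 (long noncoding). After upper quartile scaling they were 0.033 (all kept genes), 0.26 (actin), 0.13 (microtubule), 0.073 (monoamine), 0.29 (oxidative phosphorylation) and 0.13 (long noncoding), and after quantile normalization 0.29 (actin), 0.31 (monoamine), -0.24 (cell cycle), 0.38 (oxidative phosphorylation) and 0.22 (long noncoding). The median of all kept genes shifted by 0.53 (same sum), 0.34 (upper quartile), 0.18 (quantile) and 0.20 (no filter). The cause was not tested beyond the construction of each alternative. Without a change of sign, medians moved by over 1.5-fold for 7 lists without a filter, among them cytochrome P450 and glutathione transferase (-0.064) and monoamine receptor genes (1.07), for 5 with a pseudocount of 5 FPKM, among them temporal identity genes (0.75), for 3 with 0.1 FPKM, for 2 after quantile normalization, among them heat shock genes (-0.11), and for 1 each with a filter at 5 FPKM and without genes listed at 0. Of the 82 named genes that differed at least 4-fold none changed sign, while smaller differences can, as for prt. These 82 were taken for their size, and no setting shifted the median of all kept genes by over 0.53. Their unchanged signs are therefore no check of robustness. Of the 82, 51 moved by over 1.5-fold with a pseudocount of 0.1 FPKM, 65 with 5 FPKM and 12 after quantile normalization. No paired analysis was possible because the adult replicates were averaged by the authors into 1 column, and for the same reason leaving out each replicate was not run.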

Other observations

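Neuropeptide receptor genes were mixed in KC, with 6 of 18 kept genes at least 2-fold higher and 5 at least 2-fold lower in the adult. Innexin genes, which encode gap junction channels, had a median of -0.54 in KC, -4.08 in PN and -1.46 in DN over 5 kept genes. Of 45 kept cytochrome P450 and glutathione transferase genes, 6 were higher and 24 lower at 2-fold in adult KC (median -1.05, and -0.064 without the filter on low values). Antimicrobial peptide genes had 4 of 5 kept members lower and none higher. Vacuolar ATPase genes, which acidify synaptic vesicles among other organelles, had a median of 0.28 in KC and 0.79 in DN, with 5 of 19 higher and 2 lower in KC.

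Among short noncoding genes, mir-1017 was at 788 FPKM in adult KC and listed at 0 at 45 h APF, and mir-990 at 449.7 FPKM in the adult and listed at 0 at 45 h APF. In the other direction mir-4954 was listed at 0 in adult KC and at 140.2 FPKM at 45 h APF. The odorant-binding protein gene Obp99b was likewise listed at 0 in adult KC and at 108 FPKM at 45 h APF.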
